A study of Apis mellifera with 4 samples.

Results

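The 4 genes described here belong to the juvenile hormone (JH) system of the honeybee: jhamt, CYP15A1, Jhe and JhI-1. They were taken by their names, ignoring case, from a table of 11156 genes, and all 4 were among the 7833 genes with enough reads to be tested. The names stand for JH acid methyltransferase and a cytochrome P450 of the CYP15 family, which act late in JH synthesis, for JH esterase, which breaks JH down, and for a gene called JH-inducible 1 after its behaviour in Drosophila. Expression was measured by RNA-seq of whole larvae of Apis mellifera at 60 hours, in 2 samples of queens and 2 samples of workers, with 20 larvae pooled in each sample. The queen larvae had been moved into artificial queen cells and reared on royal jelly, whereas the worker larvae were not grafted and were reared in another hive, so that caste, diet, grafting and hive cannot be told apart. The mothers were inseminated with the semen of a single drone each. Each replicate was a separate pool, and every test below that uses all samples takes its error from the spread between pools of a caste. In the tests of single genes, the error of a gene is partly borrowed from all tested genes and is not that of its own pools alone. Where a sample was left out, its caste adds no spread of its own to the error.

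JH is a sesquiterpenoid hormone made in the corpora allata, a pair of small glands behind the brain. Its synthesis begins with the mevalonate pathway, which makes farnesyl units, and ends with the addition of a methyl group by jhamt and of an epoxide by CYP15A1. The hormone is carried in the haemolymph by binding proteins and is cleared by esterases and epoxide hydrolases. In honeybee larvae a high JH titre is known to favour queen development. The lists of tissue markers used here hold no marker of the corpora allata other than these genes themselves. In whole larvae, fewer cells of a type and less RNA per cell cannot be told apart.

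The exons of all genes received 4949093 to 5219511 reads in the queen pools, against 5243286 to 5476218 reads in the worker pools. RPKM, the exon reads of a gene scaled by its exon length and by the mapped reads of the library, was used for levels and for comparisons between genes. Read counts were tested by edgeR (quasi-likelihood, with SE for the standard error of a log2 fold change) after scaling by TMM factors, which correct library totals for a few genes that take many reads. With these factors the log2 fold changes of the tested genes had a median of 0.01, whereas with library totals, on which RPKM rests, it was 0.55 towards queens. Ratios of RPKM between castes are therefore shifted towards queens relative to the fold changes given below, which are always queens over workers. A gene was called where p, adjusted by the Benjamini-Hochberg method over all tested genes, was below 0.05. Of all tested genes 18.3% were called, 6.32% as higher in queens and 12.0% as higher in workers. Of the 4 JH genes 3 were called, CYP15A1 and JhI-1 as higher in queens and Jhe as higher in workers, while jhamt was not. Since the samples were whole larvae, markers of several tissues were followed beside these genes. All 5 fat body and haemolymph markers found, of 7 sought, were called higher in workers. Of 13 muscle markers sought 7 were found and 6 tested, and all 6 were called higher in workers, with a summed RPKM of 688 to 743 in queens and 1351 to 1413 in workers. Among nervous system markers 6 of 11 were found, and 1 of the 3 tested was called higher in workers (summed RPKM 11.5 to 11.7 in queens and 12.7 to 14.7 in workers). For 8 cuticle markers 7 rows were found, and 3 of the 4 tested were called higher in workers (summed RPKM 298 to 732 in queens and 331 to 465 in workers), while Apd-1 and 1 of the 2 rows named Apd-3 were at 0 reads in all samples. The part of these tissues in the differences of the JH genes was not tested.

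The level of CYP15A1 separated the castes with little spread. CYP15A1, which encodes the epoxidase of JH synthesis, had an RPKM of 157 and 146 in the queen pools and 35.8 and 33.7 in the worker pools. These values rest on 1555 and 1381 reads in queens and on 362 and 335 reads in workers. The lower queen sample lay far above the higher worker sample. The mean was 152 ± 7.45 RPKM in queens and 34.8 ± 1.46 RPKM in workers (SD, n = 2 each). CYP15A1 was 3.05-fold higher in queens, a log2 fold change of 1.61 (SE 0.10, adjusted p = 0.0011, edgeR). The 95% interval of the log2 fold change ran from 1.35 to 1.87. Ordered by log2 fold change, it stood at place 152 of the 7833 tested genes on the queen side. Its RPKM exceeded that of 93.9% of the tested genes in queens and of 78.9% in workers. In the 13 alternatives that kept all samples, the gene stayed called, with log2 fold changes between 1.61 and 2.15. Leaving out each sample in turn gave log2 fold changes between 1.57 and 1.65.

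jhamt, the methyltransferase of the same route, differed more between the queen pools than between the castes. It had 188 and 63 reads in the queen pools, against 68 and 72 reads in the worker pools. Its RPKM was 23.9 and 8.41 in queens and 8.48 and 9.14 in workers. Queen sample 1 thus stood above the other 3 samples, and queen sample 2 lay with the workers, so that the castes overlapped. With TMM factors the values were 29.7 and 10.6 CPM (reads scaled to the TMM library size) in queens and 15.0 and 16.6 CPM in workers. The mean was 16.2 ± 11.0 RPKM in queens and 8.81 ± 0.469 RPKM in workers (SD, n = 2 each). The log2 fold change was 0.36 (SE 0.48, adjusted p = 0.65, edgeR), with a 95% interval from -0.85 to 1.56. That interval includes no difference as well as the log2 fold change of 1.10 found for JhI-1. After scaling, jhamt was 2.79-fold higher in queen sample 1 than in queen sample 2, and 2.78% of the tested genes differed more between these samples. The gap was wider than counting error, since the exact Poisson 95% intervals of the reads were 162 to 217 for queen sample 1 and 48.4 to 80.6 for queen sample 2. Without queen sample 1 the log2 fold change of jhamt was -0.56, and without queen sample 2 it was 0.92. These fits hold no spread between queen pools, so that their p-values are not given. The queen pools therefore decide the direction of the difference of this gene.

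**Figure D1:**
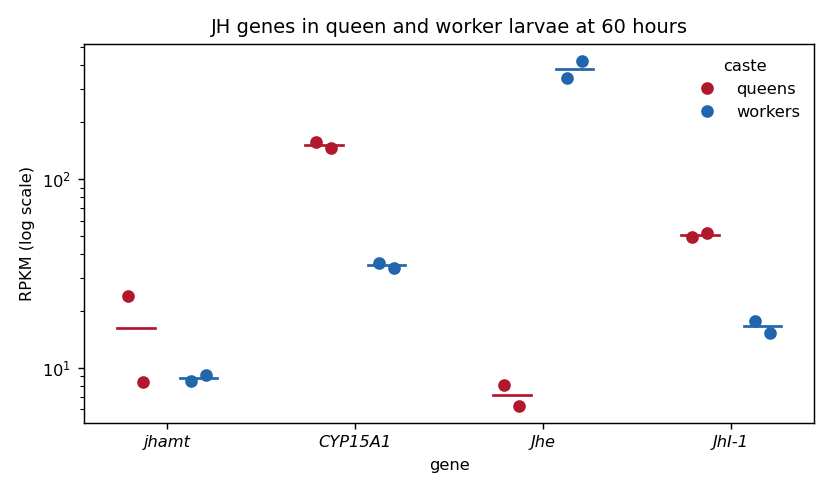
RPKM (log scale) of the 4 JH genes in queen larvae (red) and worker larvae (blue) at 60 hours. Each point is a sample of 20 pooled larvae and each bar the mean of 2 samples. The castes are far apart for CYP15A1, Jhe and JhI-1, and for jhamt queen sample 2 (8.41) lies below both worker samples.

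Jhe, which encodes the esterase that opens the ester bond of JH, had by far the largest difference of the 4 genes, and in the opposite direction to CYP15A1. Its RPKM was 8.08 and 6.28 in the queen pools, against 342 and 421 in the worker pools. There were 104 and 77 reads in queens and 4485 and 5419 reads in workers, with no overlap. The mean was 7.18 ± 1.27 RPKM in queens and 381 ± 55.7 RPKM in workers (SD, n = 2 each). Jhe was 75.8-fold higher in workers, a log2 fold change of -6.24 (SE 0.20, adjusted p = 2.2e-04, edgeR), with a 95% interval from -6.76 to -5.73. On the worker side it stood at place 10 of the 7833 tested genes. Its RPKM exceeded that of 26.1% of the tested genes in queens, whereas in workers it exceeded that of 97.7%. The median coverage of its exons, the deposited depth at the middle base, was 2 and 1 in queens and 104 and 119 in workers. JH esterase is known as a product of the fat body, and the fat body and haemolymph markers moved the same way. Their summed RPKM was 8696 and 9608 in queens and 80305 and 72772 in workers. Their median log2 fold change was -4.59, and none of the 5 was at 0 reads in any sample. These markers are hexamerin genes, which encode storage proteins, and Vg, which encodes vitellogenin. The paper states that JH regulates the expression of a hexamerin gene. Whether the marker levels follow the amount of fat body was not tested, and neither was the part of the fat body in the difference of Jhe.

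JhI-1, which encodes a ribonuclease Z that processes the ends of transfer RNAs in Drosophila, was higher in queens. Its RPKM was 49.3 and 51.6 in the queen pools, against 17.7 and 15.3 in the worker pools. The reads were 569 and 567 in queens and 209 and 177 in workers, so that the castes did not overlap and the queen samples were nearly equal. The mean was 50.4 ± 1.63 RPKM in queens and 16.5 ± 1.73 RPKM in workers (SD, n = 2 each). The fold change was 2.14 towards queens, a log2 fold change of 1.10 (SE 0.13, 95% interval 0.78 to 1.41, adjusted p = 0.0057, edgeR). It stood at place 279 on the queen side. Without worker sample 2 the log2 fold change was 1.01, and the gene was no longer called. Calls fell over all genes in that fit too, and the cause of the loss for JhI-1 was not tested.

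**Figure D2:**
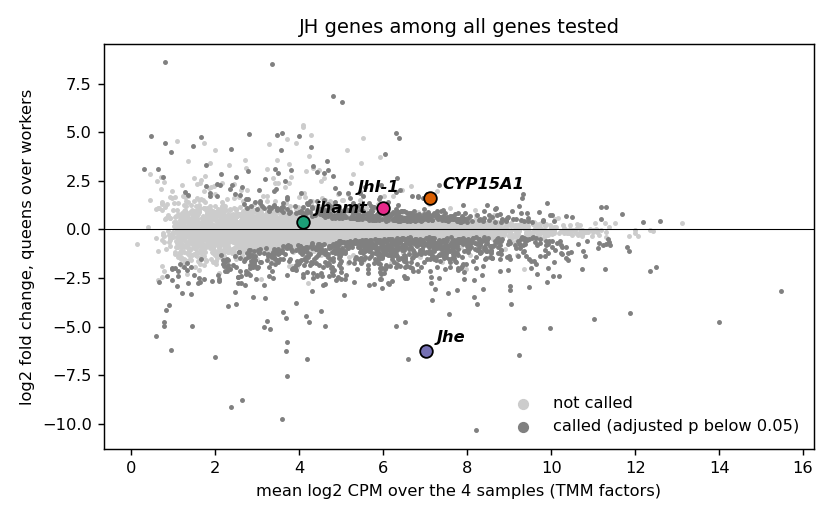
Log2 fold change, queens over workers, against mean log2 CPM for the 7833 tested genes, with the 4 JH genes as large points. Dark grey points are genes with an adjusted p below 0.05. Jhe (-6.24) lies at the lower margin of the cloud, CYP15A1 (1.61) and JhI-1 (1.10) above the zero line, and jhamt (0.36) within the genes that were not called.

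Within a sample, the ratio of a pair of these genes does not depend on how the libraries are scaled. The ratio of the RPKM of Jhe to that of CYP15A1, the esterase over the epoxidase, was 0.0515 and 0.0430 in the queen pools, against 9.55 and 12.5 in the worker pools. In queens CYP15A1 thus exceeded Jhe by 19.4-fold and 23.3-fold, while in workers Jhe was the more abundant of the pair. The castes differed 232-fold in this ratio, which was higher in workers (log2 difference, queens minus workers, -7.86). Jhe over jhamt gave 0.338 and 0.747 in queens and 40.3 and 46.0 in workers, an 85.7-fold higher ratio in workers. CYP15A1 over jhamt gave 6.56 and 17.4 in queens and 4.22 and 3.69 in workers, a log2 difference of 1.44. Without queen sample 2 this difference was 0.73, and without queen sample 1 it was 2.14. The last ratio was thus more unequal between the queen samples than between the worker samples. The castes did not overlap in any of the 3 ratios, and the two-sided exact permutation p was 0.333 for each, the smallest that 2 samples against 2 allow. Of the 4 genes, the order by RPKM in queens was CYP15A1, JhI-1, jhamt and Jhe, but jhamt and Jhe were close in queen sample 2 (8.41 and 6.28). In workers it was Jhe, CYP15A1, JhI-1 and jhamt in both samples.

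**Figure D3:**
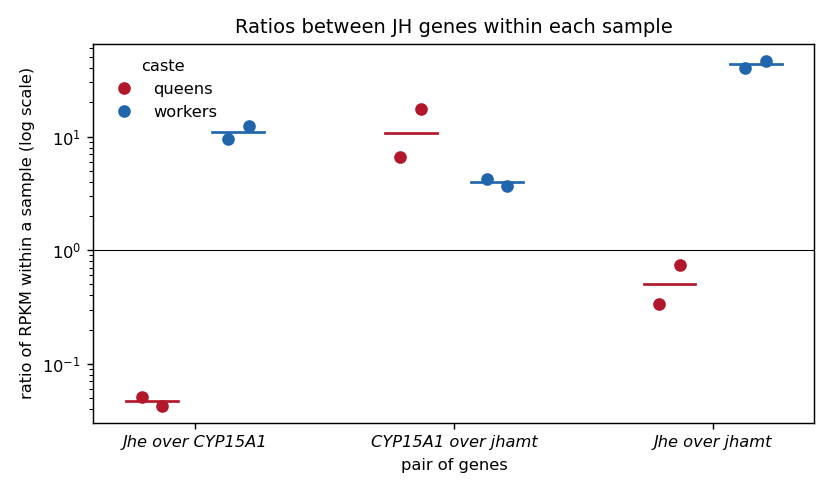
Ratio of RPKM between pairs of JH genes within each sample (log scale), in queens (red) and workers (blue). Points are samples, bars are geometric means of 2 samples and the line marks a ratio of 1. Jhe over CYP15A1 lies below 1 in both queen samples (0.0515 and 0.0430) and above 1 in both worker samples (9.55 and 12.5).

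The gene models and the kinds of reads show what these levels rest on. jhamt has 5 exons of 1270 bp in total, CYP15A1 has 8 exons of 1601 bp, Jhe has 8 exons of 2078 bp and JhI-1 has 4 exons of 1865 bp. Every read of jhamt and Jhe matched a single place in the genome, as did 99.7% of the CYP15A1 reads and 94.8% of the JhI-1 reads, so that near-identical copies carry little weight here. All 4 genes gave spliced reads in every sample. Jhe had 20 and 14 reads across exon-exon junctions in queens and 900 and 1069 in workers. CYP15A1 had 334 and 312 such reads in queens and 66 and 78 in workers. The castes differed in the same direction in spliced reads as in exon reads for both genes.

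Reads that ran from an intron into an exon were few. For CYP15A1 there were 24 and 26 in queens and 1 and 2 in workers. They were 6.70% (exact 95% interval 4.34 to 9.81%) and 7.69% (5.09 to 11.1%) of its junction reads in queens and 1.49% (0.0378 to 8.04%) and 2.50% (0.304 to 8.74%) in workers. Both worker shares lay below both queen shares, but they rest on 1 and 2 reads, and the difference was not tested. For Jhe the share was 1.21% and 1.38% in workers, with 11 and 15 such reads, and in queens only 2 and 0 such reads were counted. Over all genes the share was 8.55% and 8.91% in queens and 9.36% and 9.86% in workers. Reads inside the region of Jhe but outside its exons numbered 14 and 19 in queens and 12 and 10 in workers. The caste difference of Jhe was thus seen in exon reads, in spliced reads and, on few reads, in reads from an intron into an exon. The few reads outside exons were of similar number in both castes. The intervals of these shares cover counting error only and not the spread between pools. Reads amplified by PCR are also not independent molecules.

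The regions of neighbouring genes, margins included, overlap some of these regions, and no strand is stated for the library. The region of CYP15A1, with its margins, shares 608 bp with that of CYP305D1, another cytochrome P450 gene, which had 41 and 21 reads in queens and 45 and 22 in workers. That is a small number beside the 1555 and 1381 reads of CYP15A1 in queens, and the reads of CYP305D1 overlapped between the castes. The region of JhI-1, with its margins, shares 1026 bp with that of LOC100578517, which had 94 and 94 reads in queens and 32 and 50 in workers. The region of JhI-1 reaches 500 bp beyond its listed transcript on each side. Of 725 genes with 1 transcript, 56.8% had this margin on both sides. The shared lengths thus include margins, and the overlap of exons was not measured. This neighbour, too, had more reads in both queen samples than in either worker sample. Wherever the transcripts of the pair overlap, their reads cannot be told apart. jhamt and Jhe overlapped no other region. A separate table of transcripts that were all higher in queens held CYP15A1 and JhI-1, and its membership is a result of the study and was not used as support. Of the reads on the CYP15A1 transcript listed there, 64.6% and 64.6% in queens and 66.0% and 64.3% in workers belonged to that transcript alone. The share was close to equal in all 4 samples, whereas the reads differed.

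The other genes of the JH route were followed by lists, ordered from synthesis to response. Of 8 enzymes of the isoprenoid part of JH synthesis 1 was found by name, and it was called higher in queens. This gene, Hmgs, which makes hydroxymethylglutaryl-CoA, had an RPKM of 28.5 and 32.5 in queens and 14.4 and 13.6 in workers, with no overlap. The log2 fold change was 0.61 (SE 0.14, adjusted p = 0.037, edgeR), against a median of 0.01 over all tested genes. The call lay near the threshold. The call was lost without worker sample 1 (log2 fold change 0.64), worker sample 2 (0.58) or queen sample 2 (0.51). Where either worker sample was left out, calls over all genes fell as well. The mevalonate pathway serves all cells of a larva and not the corpora allata alone.

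Of 5 kinds of genes for JH breakdown and carriage other than Jhe, only JHBP-1, named as a JH binding protein, was found. It had 835 and 186 reads in queens and 872 and 1051 reads in workers, and was not called (log2 fold change -1.41, SE 0.62, adjusted p = 0.18, edgeR). Queen sample 2 lay far below the other 3 samples, and 1.42% of the tested genes differed more between the queen samples. Like jhamt, it was thus higher in queen sample 1 than in queen sample 2. Without queen sample 1 its log2 fold change was -2.78, and without queen sample 2 it was -0.71. JHBP-1 shares sequence with other genes, as 47.9% of its reads matched a single place.

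Among the genes of JH reception and early response 5 of 9 were found, of which 1 was called higher in queens and 1 higher in workers. Their median log2 fold change was -0.16, against 0.01 over all tested genes, and it turned with the scaling, since Usp, the middle gene, was at 0.38 with library totals, where all tested genes had 0.55. Kr-h1, a zinc finger transcription factor that is an early target of the JH receptor, had 201 and 151 reads in queens and 47 and 53 reads in workers. Its RPKM was 32.2 and 25.4 in queens and 7.39 and 8.49 in workers, with no overlap, and its log2 fold change was 1.34 (SE 0.21, adjusted p = 0.014, edgeR). Br-c, the Broad-Complex transcription factor known from metamorphosis, went the other way, with 197 and 245 reads in queens and 438 and 436 in workers. The log2 fold change was -1.44 (SE 0.17, adjusted p = 0.0059, edgeR). Both calls were lost where either worker sample was left out, and calls over all genes fell in these fits too. Without worker samples 1 and 2 in turn, the log2 fold change was 1.23 and 1.46 for Kr-h1. For Br-c it was -1.47 and -1.41.

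The remaining genes of this list are nuclear receptors, and none was called. Usp had 157 and 158 reads in queens and 153 and 103 in workers (log2 fold change -0.16, SE 0.21). Hr38 was low, with 13 and 34 reads in queens and 25 and 11 in workers, and 14.5% of them matched a single place, so that most of these reads may belong to other genes. ftz-f1 had 260 and 899 reads in queens and 738 and 545 in workers (log2 fold change -0.58, SE 0.57). Here queen sample 2 was the higher of the queen pools, the reverse of jhamt and JHBP-1, and 1.70% of the tested genes differed more between these samples. Without queen sample 1 the log2 fold change of ftz-f1 was 0.08, and without queen sample 2 it was -1.80.

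Of the neuropeptides that act on the corpora allata only AST, an allatostatin, was found, with 16 and 8 reads in queens and 4 and 4 reads in workers. Allatostatins inhibit JH synthesis in several insects. AST was too low to be tested.

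All 7 genes that the study lists as responding to JH were present, and the study chose that list partly on these samples, so that it is not independent evidence of a direction. Of the 6 tested genes JhI-1 was called higher in queens and LOC408421 higher in workers, and the median log2 fold change was 0.21, against 0.01 over all tested genes. That median rests in part on LOC100577486, also named after its values were seen. This gene had 161 and 37 reads in workers, and 0% of its reads matched a single place. LOC408421, named here after its values were seen, had 1564 and 1001 reads in queens and 2031 and 2289 in workers, with a log2 fold change of -1.23 (SE 0.20, adjusted p = 0.016, edgeR). That call was lost without worker sample 1 (log2 fold change -1.34) and without worker sample 2 (-1.11), where calls over all genes also fell. The log2 fold changes of the other 4 tested genes lay between -0.56 and 0.75, with adjusted p of 0.070 or more in the edgeR test. JhI-1 was thus the only gene of this list called higher in queens with TMM factors.

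**Figure D4:**
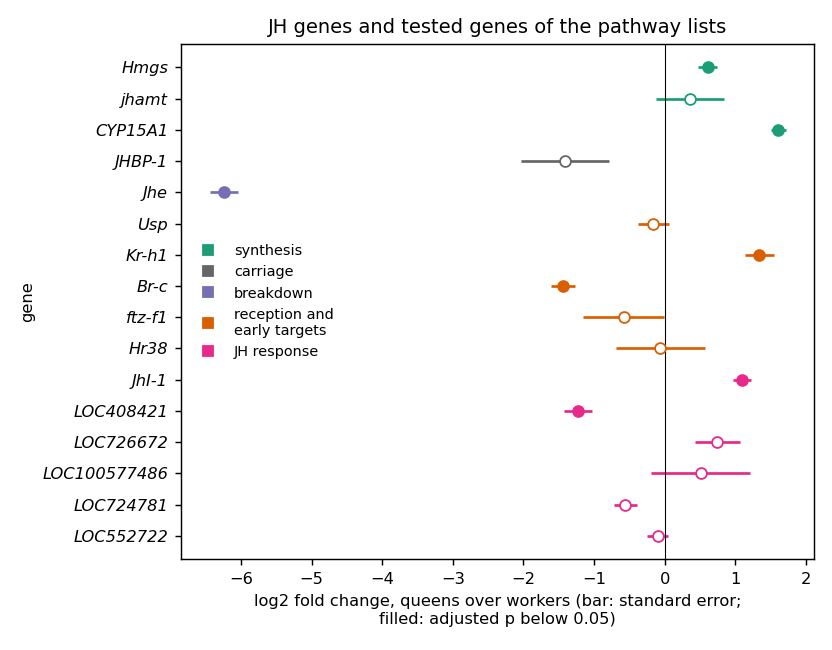
Log2 fold changes, queens over workers, of the 4 JH genes and of tested genes of the JH lists, in the order of the route, with SE as bars. Filled points have an adjusted p below 0.05. Hmgs, CYP15A1, Kr-h1 and JhI-1 are filled to the right of 0, while Jhe, Br-c and LOC408421 are filled to the left.

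For each JH gene the 3 named genes with the nearest pattern were sought among 1927 genes with a mean of at least 10 CPM, by the Euclidean distance of centred log2 CPM over the 4 samples. Nearest to CYP15A1 was Cat, a catalase gene, at a distance of 0.057, with 1141 and 1107 CPM in queens and 376 and 347 CPM in workers. ImpL2, which encodes an insulin-binding protein in Drosophila, and CytC, a cytochrome c gene, followed at 0.23 and 0.26. All 3 genes share a small spread between the samples of a caste with CYP15A1, which the choice by distance favours. Nearest to JhI-1 were CycE, a cyclin E gene, at 0.067, bor at 0.10 and Gem3 at 0.20. CycE had 31.9 and 35.5 CPM in queens and 17.2 and 15.2 CPM in workers.

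Among the named genes searched, the patterns of jhamt and Jhe had no such close neighbours. Nearest to jhamt was E75, an ecdysone-responsive nuclear receptor, at a distance of 0.38. E75 had 90.7 and 33.3 CPM in queens and 50.3 and 70.8 CPM in workers. Its higher level in queen sample 1 than in queen sample 2 is part of how it was chosen. cact1 and ovo followed, both at 0.47. Nearest to Jhe was SP17, a serine protease gene, at 0.82, with 1.42 and 1.69 CPM in queens and 72.0 and 105 CPM in workers. Hex110, a hexamerin storage protein gene, and Vg, which encodes vitellogenin, followed at 1.51 and 1.63. Vg had 2 and 8 reads in queens and 862 and 556 reads in workers. These distances are descriptions over 4 samples and carry no test.

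**Figure D5:**
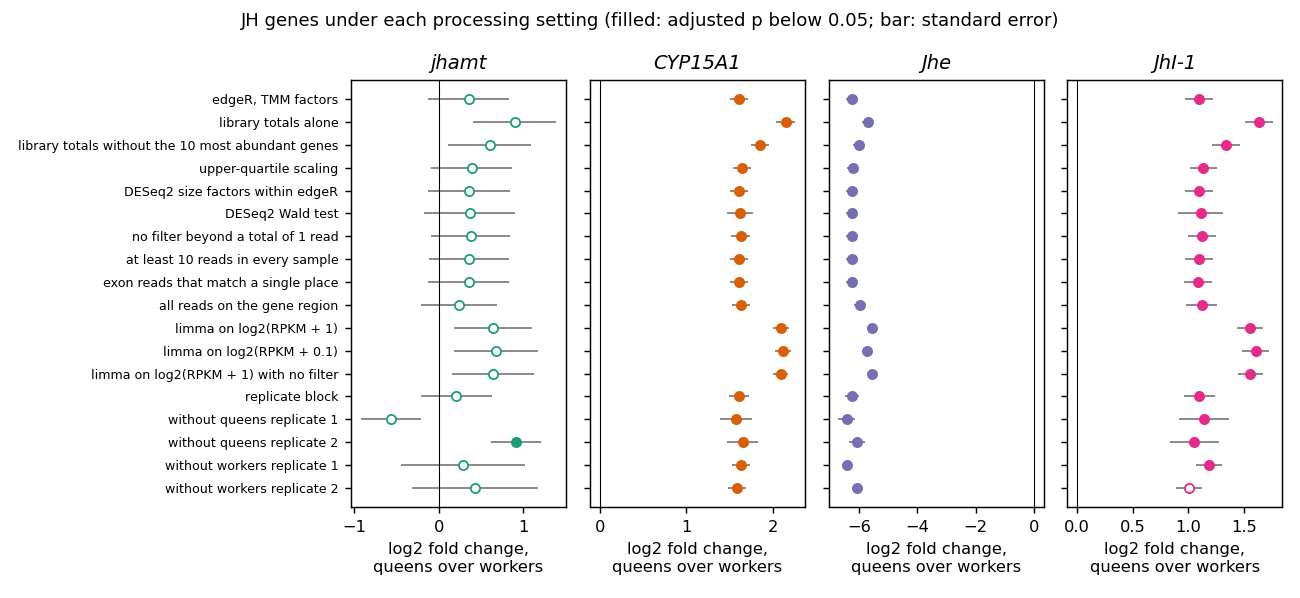
Log2 fold changes, queens over workers, of the 4 JH genes under the edgeR test with TMM factors and the 17 other settings, with SE as bars. Filled points have an adjusted p below 0.05. In the settings with all samples, CYP15A1, Jhe and JhI-1 are filled and jhamt is open. The log2 fold change of jhamt is -0.56 without queen sample 1 and 0.92 without queen sample 2. For JhI-1 it is 1.01 without worker sample 2. Where a sample was left out, the error holds no spread between pools of its caste, so that filling is not read as a call there.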

How the data were processed

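Reads of 50 bases (Illumina HiSeq) were mapped by the authors in CLC Genomics Workbench, against Amel_4.5, and the counts on each gene were deposited. Counts include reads that match several places, and single-match counts, junction reads and the median coverage signal stand beside them, as deposited by the authors. The authors computed RPKM from exon reads, exon length and mapped reads. Other deposited columns hold gene lengths, positions and numbers of exons (other). The authors' fold changes and test p-values were not used.

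Exon counts went into edgeR 4.0.16 (R 4.3.3, TMM factors, filterByExpr, quasi-likelihood test, no replicate block) over all genes. Standard errors were the log2 fold change over the root of F. Alternatives used DESeq2 1.42.0, limma 3.58.1, other scalings, filters and reads, and each sample left out. The tests were tried on simulated data with the same spread for all genes and samples, and no result here rests on that trial. With 4949093 to 5476218 exon reads per sample, counting error limits low genes. Named genes are the 4 members, fixed lists matched by symbol or synonym (RefSeq, Amel_HAv3.1) and the 3 nearest patterns. Members and lists were chosen with earlier results of these data known. 1 gene of the lists is not reported here. Positions were used only for the lengths and overlaps of gene regions, and sequences were not analysed here. Plots used matplotlib 3.10.9.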

Additional observations from a re-analysis of the deposited data

How the results depend on the processing

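Across 13 alternatives beside leaving out a sample, the log2 fold changes kept their direction and their side of the threshold, with 0.21 to 0.90 for jhamt, 1.61 to 2.15 for CYP15A1, -6.24 to -5.55 for Jhe and 1.09 to 1.64 for JhI-1. Leaving out each sample in turn, which assumes that the lone sample of a caste varies like the others, gave -0.56 to 0.92 for jhamt, 1.57 to 1.65 for CYP15A1, -6.42 to -6.07 for Jhe and 1.01 to 1.19 for JhI-1. The count of 1437 called genes moved to 4191 with library totals (88.4% higher in queens, against 34.4% with TMM factors), to 3970 and 3893 with limma on log2(RPKM + 1) and log2(RPKM + 0.1), to 3536 with limma and no filter, and to 458 at an adjusted p below 0.01. Library totals without the 10 most abundant genes gave 2077 calls, 68.7% of them higher in queens. Without 1 sample the count lay between 298 and 1314, with 465 without worker sample 1 and 298 without worker sample 2, and the cause was not tested. The queen samples differed more from each other than the worker samples (chi-square of their counts per degree of freedom 20.9 in queens and 9.98 in workers). A lone queen sample can therefore not be taken to vary like the worker samples. Replicate numbers name different larvae, and same-numbered samples did not deviate together (r = -0.04 over 7833 genes). With the replicate block 1223 genes were called, and the log2 fold changes were 0.21 for jhamt, 1.61 for CYP15A1, -6.24 for Jhe and 1.10 for JhI-1, with no call of these 4 changed, while Hmgs was no longer called (adjusted p = 0.057, edgeR). The ratios, recomputed without each sample by a choice made after seeing the data, lay between -8.05 and -7.66 (log2, queens minus workers) for Jhe over CYP15A1, -6.99 and -5.85 for Jhe over jhamt, and 0.73 and 2.14 for CYP15A1 over jhamt.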
